A study of Mus musculus with 6 samples.

Results

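The genes described here encode complement and coagulation factors that are secreted into plasma by the liver. They were taken as the 39 gene names of a fixed list, 19 of complement and 20 of coagulation and fibrinolysis. All 39 were present among the 54320 genes of the tables, each in 1 row, and all 39 were among the 13787 genes tested. Each was measured by RNA sequencing in livers of 6 C57BL/6 mice, 3 per genotype. The 3 control mice (flox 1 to 3) carried loxP sites in both alleles of the HuR gene (HuR flox/flox). The other 3 mice (HKO 1 to 3) carried the same alleles together with 1 copy of Alb-Cre (HuRflox/flox Alb-Cre+/-), in which the albumin promoter drives Cre recombinase in hepatocytes. HuR, the product of Elavl1, is an RNA-binding protein that binds AU-rich sequence in messenger RNA. All 6 mice received a diet named MCD in the labels for 3 weeks and were 11 weeks old at collection, and no group on another diet was analysed here. The labels do not say whether flox mice carried Cre. The comparison asks how liver transcripts differ between the genotypes on this diet.

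Complement is a cascade of plasma proteases. It is started by recognition proteins, proceeds through convertases that cleave C3 and C5, and ends in a pore built from the terminal components. Coagulation is a second protease cascade that leads to thrombin, which turns fibrinogen into fibrin, and it is held in check by anticoagulant proteins and by plasmin. Hepatocytes make most of these proteins, under liver transcription factors such as HNF4 and C/EBP, and inflammatory signals that act through interleukin 6 and STAT3 raise several of them, fibrinogen among them, in the acute-phase response.

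Promoter sequence was available for 30 of the 39 genes in RefSeq's table for GRCm38.p6, as 250 bases before to 50 after the annotated start. The 250 bases before the start are printed for the 3 fibrinogen genes and Pros1, which are 4 of the 5 members in which flox 3 stood apart from every other library, and for C3, the most abundant member among those lower in every library labelled HKO. Capitals mark matches on either strand to the letters searched. These were TTCCNGGAA for STAT, TTGCNNAA for C/EBP, CAAAGTCCA for HNF4 and CTGGGAA, an interleukin 6 response element that was added after the promoters had been read.
Fga, chr3:83025903-83026152, plus strand: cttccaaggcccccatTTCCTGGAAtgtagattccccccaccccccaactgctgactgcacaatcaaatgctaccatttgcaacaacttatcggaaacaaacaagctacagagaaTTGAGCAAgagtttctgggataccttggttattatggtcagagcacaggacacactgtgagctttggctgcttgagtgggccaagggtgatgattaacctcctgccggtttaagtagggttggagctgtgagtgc
Fgb, chr3:83049864-83050113, minus strand: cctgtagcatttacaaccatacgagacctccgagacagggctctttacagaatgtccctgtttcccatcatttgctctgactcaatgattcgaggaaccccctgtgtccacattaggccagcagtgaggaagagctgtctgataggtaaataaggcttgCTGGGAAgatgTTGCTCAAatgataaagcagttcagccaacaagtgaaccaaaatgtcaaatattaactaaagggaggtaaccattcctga
Fgg, chr3:83007474-83007723, plus strand: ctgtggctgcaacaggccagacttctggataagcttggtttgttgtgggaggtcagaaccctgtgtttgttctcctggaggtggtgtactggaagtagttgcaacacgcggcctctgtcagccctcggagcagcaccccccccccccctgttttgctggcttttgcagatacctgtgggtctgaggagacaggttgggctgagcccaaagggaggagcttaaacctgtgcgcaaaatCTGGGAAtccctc
Pros1, chr16:62854057-62854306, plus strand: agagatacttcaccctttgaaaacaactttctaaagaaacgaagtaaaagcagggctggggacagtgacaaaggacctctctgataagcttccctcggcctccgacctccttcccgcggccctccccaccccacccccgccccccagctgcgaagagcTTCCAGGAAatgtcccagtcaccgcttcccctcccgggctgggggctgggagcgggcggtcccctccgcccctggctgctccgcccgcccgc
C3, chr17:57228137-57228386, minus strand: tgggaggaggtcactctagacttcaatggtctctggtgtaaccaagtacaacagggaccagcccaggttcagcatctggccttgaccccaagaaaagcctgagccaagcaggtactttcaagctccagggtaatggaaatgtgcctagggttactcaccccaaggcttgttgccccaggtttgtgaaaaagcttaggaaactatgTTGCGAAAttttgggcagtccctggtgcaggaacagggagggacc

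Matches are given as a description of these letters, not as sites. The start used for the Fga promoter lies downstream of the gene's start in the deposited annotation, chr3:83026076. The last printed bases of Fga thus lie inside the gene as given below. In Fga the capitals are, in order, a STAT and a C/EBP match. Fgb has a CTGGGAA match followed by a C/EBP match, Fgg has a CTGGGAA match, Pros1 has a STAT match and C3 has a C/EBP match. Over the whole window, C/EBP letters occurred in 11 of the 30 members (36.7%), against 12.2% of 27025 genes. STAT letters occurred in 2 members (6.67%) against 1.35%, HNF4 letters in 0 members against 0.555%, and CTGGGAA in 7 members (23.3%) against 12.7%. Because CTGGGAA was added after these promoters had been read, its share cannot count as an excess in them. No 2 of the matches printed above overlap each other, and the shares were not tested.

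Reads assigned to genes numbered 16769082 to 20633215 per library. The deposited values are FPKM, read counts scaled to gene length and to a library size. That size followed median-of-ratios size factors and not the total reads. It was 15321755 for the 18119468 reads of flox 3 and 20051881 for the 16769082 reads of HKO 1. Elavl1, the targeted gene, went against the labels: it was at 3.51, 2.36 and 2.99 FPKM in flox 1, 2 and 3 and at 5.77, 4.28 and 4.91 FPKM in HKO 1, 2 and 3, and it did not pass (log2 fold change 0.67, SE 0.23, limma, Benjamini-Hochberg adjusted p = 0.208). Its values cover the whole gene, and which exons lie between the loxP sites is not given in the sources used here. The genotype is therefore given as labelled throughout. Genes with reads numbered 16608 in flox 2 and 19920 to 22067 elsewhere, and flox 2 values fell with gene length (slope -0.142 per log2 of length, against -0.040 to 0.049 elsewhere). Elavl1 is long, at 10363 bases. With each library's length trend removed its log2 fold change was 0.32 (limma, adjusted p = 0.455). With flox 3 left out as well it was 0.13 (limma, adjusted p = 0.590). The summed level of 8 hepatocyte markers, mostly Alb at 30115 to 45562 FPKM, was 44567 to 56263 FPKM in flox libraries, against 46367 to 59023 FPKM in HKO libraries. Of the 8, 1 was lower and 0 were higher at an unadjusted p below 0.05, Apoa1, at 7954 to 14622 FPKM in flox libraries, against 5371 to 6892 FPKM in HKO libraries, and Cps1 stood apart in flox 3 at 1419.5 FPKM, against 122 to 547 FPKM elsewhere. Summed cholangiocyte markers were at 41.8 to 70.5 FPKM in flox libraries, against 104 FPKM or more in each HKO library, with 3 of 7 higher (Epcam, Spp1 and Sox9) and 0 lower at that p. With the deposited scaling 10.8% of all genes tested were lower and 10.1% were higher at that p. Of the cholangiocyte markers, Krt7, Cldn7 and Muc1 were highest in flox 2. Summed pancreatic acinar markers were at 4828.5 FPKM in HKO 3 and at 5.01 to 45.8 FPKM in the other libraries. The part of these differences in the values below was not tested.

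The 39 genes covered a wide range of levels. The mean over 6 libraries ran from 1583 FPKM for C3 to 2.60 FPKM for Cfb, with 18 genes at 100 FPKM or more and 6 under 20 FPKM. Among these 6, Cfb, C2 and Klkb1 share 79.5%, 46.9% and 43.2% of their exon bases with other gene models, so their levels are uncertain. Together they took up 2.64% to 3.21% of the reads in 5 libraries and 5.86% in flox 3. Fibrinogen accounted for most of that excess, since the other 36 genes held 2.02% to 2.48% of reads in every library. The fewest reads behind any member were 27, for Cfb in flox 2, and no other member had under 100 reads in a library.

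None of the 39 genes passed the threshold (limma on log2(FPKM + 0.5), Benjamini-Hochberg adjusted p below 0.05), where 2 of the 13787 genes tested (0.0145%) did. Voom on the recovered reads also called 0 members. Members with an unadjusted p below 0.05 numbered 7 by either test, against 20.9% of all genes, and their 17.9% is near that share. All 7 were lower in the libraries labelled HKO, against 10.8% of all genes that were lower and 10.1% that were higher at that p. They were Serping1, Kng1, F12, C4b, C3, C2 and Kng2. Groups did not overlap in 12 members (30.8%), against 31.9% of all genes. In all 12 the libraries labelled HKO were the lower ones, which held for 16.7% of all genes, and 15.3% of all genes did not overlap the other way. Besides the 7, these were Proc, C6, Mbl1, Masp2 and F2. In bulk tissue, fewer cells of a type and less RNA per cell cannot be told apart.

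Direction over the whole list hung on the scaling. With the deposited scaling 25 of 39 members had a negative log2 fold change, against 50.1% of all genes, and the median was -0.23, against -0.0018 over all genes. Scaling to total reads moved the median of all genes to 0.24 and that of the members to 0.06, and upper quartile scaling moved them to 0.11 and -0.09. Quantile normalization left all genes at -0.018 and put the members at 0.27, above all genes. In 14 members the sign turned under at least 1 of the 3 scalings. The 7 genes at an unadjusted p below 0.05 kept a negative value under all 3, but the counts at that p shifted. Under quantile normalization 1 member was lower and 6 were higher at that p, against 9.89% and 10.9% of all genes. Groups did not overlap there in 3 lower and 12 higher members, against 14.7% and 15.4% of all genes. Under total read scaling 1 member was lower and 2 were higher at that p, against 3.07% and 20.7% of all genes. Groups then did not overlap in 6 lower and 7 higher members, against 5.29% and 29.1% of all genes. Under upper quartile scaling 6 members were lower and 0 higher at that p, against 6.76% and 13.9% of all genes, and groups did not overlap in 7 lower and 1 higher, against 11.5% and 20.6% of all genes.

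**Figure D1:**
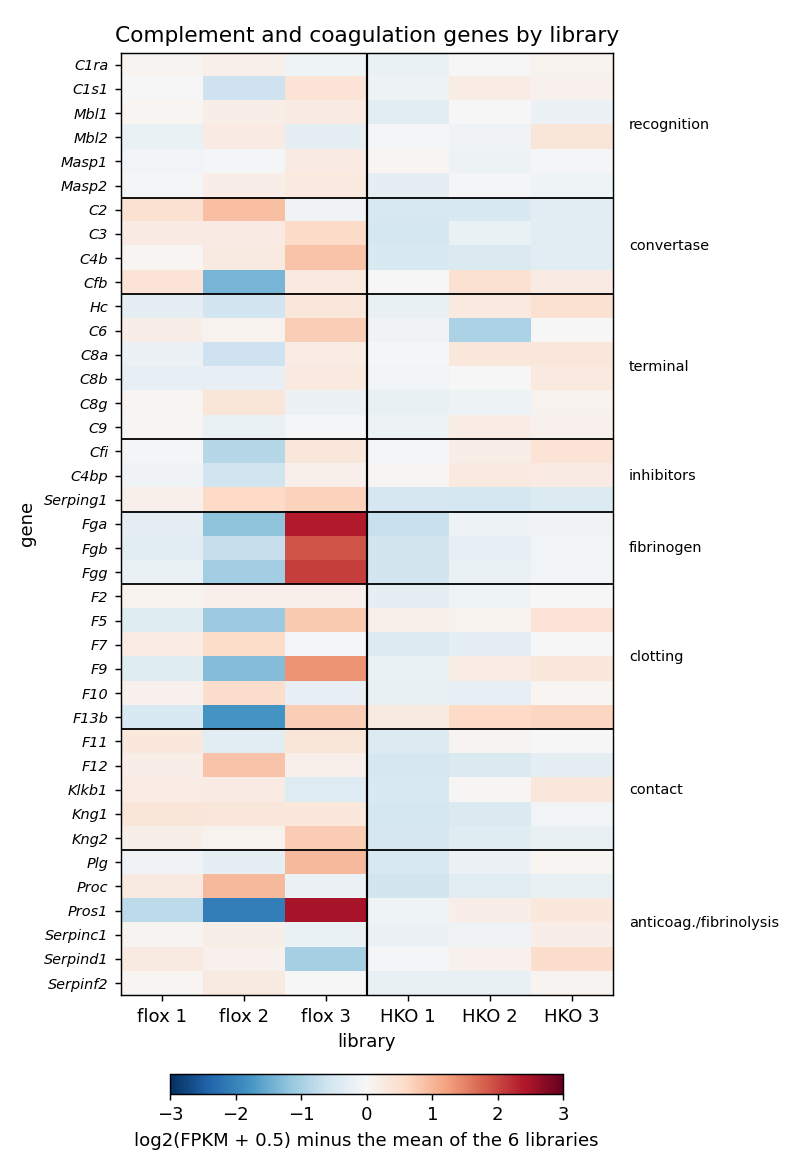
Level of the 39 genes in each library, as log2(FPKM + 0.5) minus the gene's mean over the 6 libraries (red above, blue below that mean), with genes on the vertical axis ordered by role and libraries on the horizontal axis. The 3 fibrinogen genes and Pros1 are far above their means in flox 3, and C2, C3, C4b, Serping1, F12, Kng1 and Kng2 are below their means in all 3 HKO libraries.

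Recognition proteins and their proteases differed little between the groups. C1ra and C1s1 encode the proteases of the C1 complex, Mbl1 and Mbl2 encode mannose-binding lectins, and Masp1 and Masp2 encode the proteases that the lectins activate. Mbl1 was at 98.4, 109 and 113 FPKM in flox 1, 2 and 3 and at 75.3, 95.5 and 84.5 FPKM in HKO 1, 2 and 3. Its groups did not overlap, yet flox 1 and HKO 2 lay close together. The log2 fold change was -0.33 (SE 0.20, limma, adjusted p = 0.351), and quantile normalization turned it to 0.13. Masp2 was at 26.5 to 32.9 FPKM in flox libraries, against 22.1 to 25.9 FPKM in HKO libraries, a narrow gap in a gene that shares 54.9% of its exon bases with Tardbp on the other strand. The other 4 overlapped between groups, with log2 fold changes from -0.08 to 0.15. Of the 50-base words of the C1ra transcripts, 48% also occur in C1rb, and of those of C1s1 21.8% occur in C1s2, so reads of these genes could be split between the copies.

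Of the convertase components, 3 of 4 were lower in every library labelled HKO than in any flox library, and none passed the threshold. C3 encodes the central protein of complement, whose cleavage all pathways share. It lies at chr17:57203970-57228136 and was at 1799.9, 1808 and 2277 FPKM in flox 1, 2 and 3 and at 1056, 1332 and 1222 FPKM in HKO 1, 2 and 3. The lowest flox value was thus above the highest HKO value, and the flox mean was 1.63 times the HKO mean. The log2 fold change was -0.70 (SE 0.23, limma, adjusted p = 0.206). C4b encodes complement C4, which joins C2 in the convertase of the classical and lectin pathways. Its values were 124, 144 and 217 FPKM in flox libraries, against 86.1, 88.5 and 96.0 FPKM in HKO libraries (chr17:34728380-34743882). Flox 3 was the highest and the HKO libraries were close together, with a log2 fold change of -0.80 (SE 0.26, limma, adjusted p = 0.204). C4a, a near copy of C4b, holds 34.6% of the 50-base words of C4b, so the C4b values are uncertain to that extent.

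C2, the protease of that convertase (chr17:34862604-34898265), was at 12.1, 16.7 and 8.01 FPKM in flox 1, 2 and 3 and at 6.12, 6.23 and 6.76 FPKM in HKO 1, 2 and 3. Flox 3 was the lowest flox library here, unlike in C4b, and still lay above the HKO libraries. Its log2 fold change was -0.84 (SE 0.29, limma, adjusted p = 0.209). Cfb, which encodes factor B, the protease of the alternative pathway convertase, was at 3.33, 0.594 and 3.00 FPKM in flox and at 2.37, 3.42 and 2.88 FPKM in HKO libraries (chr17:34856374-34862518). Flox 2 stood apart below the rest and the other 5 libraries were alike, so the log2 fold change of 0.46 (SE 0.49, limma, adjusted p = 0.581) became -0.12 without flox 2. C2 and Cfb lie 0.0850 kb apart. Both share exon bases with the read-through gene model Gm20547, 46.9% for C2 with Zbtb12 counted in and 79.5% for Cfb, so their counts are uncertain.

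Among the terminal components, only C6 had groups that did not overlap. Hc encodes C5, C6 the protein that binds C5b, C8a, C8b and C8g the chains of C8, and C9 the subunit that completes the pore. C6 was at 12.4, 11.5 and 17.9 FPKM in flox 1, 2 and 3 and at 9.90, 5.25 and 10.7 FPKM in HKO 1, 2 and 3 (chr15:4727175-4814967). HKO 2 was the lowest library and the gap between flox 2 and HKO 3 was small. The log2 fold change was -0.70 (SE 0.33, limma, adjusted p = 0.269). The other 5 overlapped between groups. Hc had 48.3, 39.8 and 74.8 FPKM in flox libraries, against 51.1, 73.0 and 81.6 FPKM in HKO libraries, and C9 had 54.1, 46.2 and 51.9 against 47.7, 61.6 and 58.5 FPKM. C8a and C8b, whose genes lie 11.1 kb apart, had log2 fold changes of 0.38 and 0.13, and C8g one of -0.17 that turned to 0.13 under total read scaling and to 0.36 under quantile normalization.

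The complement inhibitors did not move together. Serping1, which encodes C1 inhibitor, the serpin that blocks C1r, C1s, plasma kallikrein and factor XIIa, had the smallest p of all 39 genes. It was at 212, 287 and 311 FPKM in flox 1, 2 and 3 and at 135, 132 and 144 FPKM in HKO 1, 2 and 3 (chr2:84765387-84775444). The HKO libraries were nearly equal and all lay below the flox libraries, with means of 270 ± 51.4 FPKM (SD, n = 3) in flox and 137 ± 5.99 FPKM (SD, n = 3) in HKO. The log2 fold change was -0.96 (SE 0.23, limma, adjusted p = 0.160). Cfi, the protease that inactivates C3b and C4b, was at 217, 125 and 283 FPKM in flox and at 215, 258 and 299.9 FPKM in HKO libraries. C4bp, its cofactor for C4b, was at 67.0, 47.4 and 81.0 FPKM in flox and at 74.4, 88.5 and 85.9 FPKM in HKO libraries. In both genes flox 2 was the lowest library and the groups overlapped, with log2 fold changes of 0.37 and 0.38 (limma, adjusted p = 0.519 and 0.397).

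The contact system held 3 further genes without overlap, among 5 that all had negative values with the deposited scaling. Under total read scaling 3 of the 5 were negative, since F11 and Klkb1 turned, and under upper quartile scaling and quantile normalization 4 were, since Klkb1 turned. Kng1 and Kng2 encode kininogens, the precursors of bradykinin and cofactors of contact activation. Kng1 was at 887, 873 and 859 FPKM in flox 1, 2 and 3 and at 475, 509.9 and 646 FPKM in HKO 1, 2 and 3 (chr16:23057865-23082068). The 3 flox values were within a narrow range, 873 ± 14.1 FPKM (SD, n = 3), also in the 2 flox libraries that stood apart in other genes. The HKO mean was 544 ± 90.4 FPKM (SD, n = 3), and the log2 fold change was -0.70 (SE 0.22, limma, adjusted p = 0.198).

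Kng2, 28.8 kb away on the other strand (chr16:22985854-23029101), was at 150.1, 143 and 225 FPKM in flox and at 92.9, 103 and 114 FPKM in HKO libraries. It was highest in flox 3, and the groups did not overlap (log2 fold change -0.71, SE 0.25, limma, adjusted p = 0.211). The 2 kininogen genes share 17.2% (Kng1) and 19.4% (Kng2) of their 50-base words, which could split reads between them. F12 encodes factor XII, the protease that starts contact activation. It was at 326, 513 and 316 FPKM in flox 1, 2 and 3 and at 201, 210.3 and 233 FPKM in HKO 1, 2 and 3 (chr13:55417958-55426793). Flox 2 was highest, and the lowest flox value exceeded the highest HKO value (log2 fold change -0.81, SE 0.26, limma, adjusted p = 0.200). F11, which encodes factor XI, was at 12.2 to 20.2 FPKM in flox libraries, against 11.5 to 16.5 FPKM in HKO libraries. Klkb1, which encodes plasma prekallikrein and shares 43.2% of its exon bases with the overlapping gene model Gm45753, was at 8.08 to 12.7 FPKM in flox libraries, against 7.75 to 13.6 FPKM in HKO libraries.

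**Figure D2:**
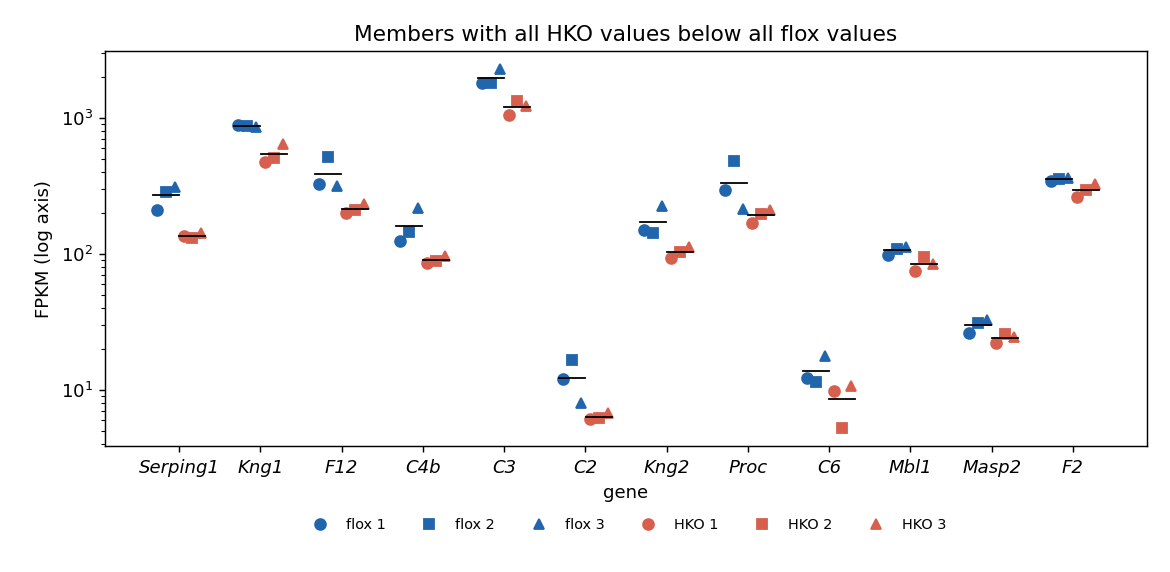
FPKM (log axis) of the 12 genes in which all HKO values lay below all flox values, with 1 point per library, flox in blue and HKO in red, and black bars at the group means. The HKO points of Serping1 lie close together below the flox points, and the gap between the groups is narrow in Mbl1, Masp2 and F2.

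The 3 fibrinogen chains had their highest value in flox 3 by a wide margin. Fga, Fgb and Fgg encode the alpha, beta and gamma chain, which are assembled in pairs into 1 protein, and their genes lie next to each other on chromosome 3, with 11.0 kb between Fgg and Fga and 6.51 kb between Fga and Fgb. Fga (chr3:83026076-83033627) was at 874, 457 and 5448 FPKM in flox 1, 2 and 3 and at 664, 947 and 974 FPKM in HKO 1, 2 and 3. Fgb (chr3:83040141-83049863) was at 789, 615 and 3684 FPKM in flox and at 677, 839 and 938 FPKM in HKO libraries. Fgg (chr3:83007724-83015049) was at 928, 521 and 4542 FPKM in flox and at 733, 929 and 1021 FPKM in HKO libraries. In each chain flox 3 was the highest and flox 2 the lowest of the 6 libraries, and flox 1 lay within the range of the HKO libraries.

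Flox 3 exceeded the next highest library 5.60 times in Fga, 3.93 times in Fgb and 4.45 times in Fgg. Fibrinogen reads were 3.38% of all reads in flox 3, against 0.429% to 0.915% in the other libraries. The ratio of Fga to Fgb was 1.48 in flox 3 and 0.742 in flox 2, and between 0.981 and 1.13 in the other 4 libraries, so the chains were not raised or lowered in equal proportion. The flox means of 2259 ± 2769 FPKM for Fga, 1696 ± 1724 FPKM for Fgb and 1997 ± 2214 FPKM for Fgg (SD, n = 3) thus rest on 1 library. Over 6 libraries the log2 fold changes were -0.61, -0.58 and -0.55 (SE 0.86, 0.66 and 0.75, limma, adjusted p = 0.675, 0.599 and 0.665). Without flox 3 they turned to 0.43, 0.22 and 0.35 (limma, adjusted p = 0.325, 0.440 and 0.364, range over all alternatives and chains 0.143 to 0.962), and under quantile normalization to 0.08, 0.12 and 0.11. With this spread no group difference in fibrinogen was detectable.

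Pros1 and F9 likewise had their highest value in flox 3 and their lowest in flox 2. Pros1 (chr16:62854307-62929346) encodes protein S, the cofactor of activated protein C, and was at 7.83, 2.90 and 79.5 FPKM in flox 1, 2 and 3 and at 12.7, 16.2 and 17.5 FPKM in HKO 1, 2 and 3. Flox 3 stood apart above the other libraries and flox 2 stood apart below them, with flox 1 also below the HKO libraries. The log2 fold change was 0.27 (SE 1.06, limma, adjusted p = 0.889). F9 (chrX:59999464-60030759) encodes factor IX, which activates factor X together with factor VIII, and was at 36.1, 18.5 and 119 FPKM in flox and at 40.6, 54.9 and 57.8 FPKM in HKO libraries. Its groups overlapped through flox 3 alone, the other 2 flox values being below all HKO values. The log2 fold change was 0.22 (SE 0.63, limma, adjusted p = 0.842).

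F13b (chr1:139501702-139523752), which encodes the carrier subunit of factor XIII, the enzyme that crosslinks fibrin, was at 23.6, 9.15 and 54.7 FPKM in flox and at 39.8, 50.1 and 51.1 FPKM in HKO libraries. Flox 2 stood apart as the lowest and flox 3 was the highest, by a small margin. It had the largest positive log2 fold change of the 39 genes, 1.01 (SE 0.59, limma, adjusted p = 0.341). F5, which encodes factor V, the cofactor of factor Xa, was also highest in flox 3 and lowest in flox 2, at 34.6, 20.7 and 76.8 FPKM in flox libraries, against 49.8, 47.8 and 60.2 FPKM in HKO libraries.

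In total 1 library stood at least 1 on the log2 scale from every other library in 7 members (17.9%), against 14.2% of all genes. Flox 3 stood apart as the highest in 5 of them (Fga, Fgb, Fgg, F9 and Pros1), 12.8% of members, against 3.65% of all genes. Flox 2 stood apart as the lowest in 3 (F13b, Cfb and Pros1), 7.69% of members, against 4.85% of all genes. Counting ranks without a margin, flox 3 was the highest library in 20 members (26.3% of all genes) and HKO 1 the lowest in 16 (10.3% of all genes). Flox 2 was the lowest library in 14 members (38.3% of all genes) and the highest in 8 (34.1% of all genes). The library spread was wider in flox: the median SD over members on the log2 scale was 0.39 in flox and 0.19 in HKO, against 0.52 and 0.15 over all genes.

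**Figure D3:**
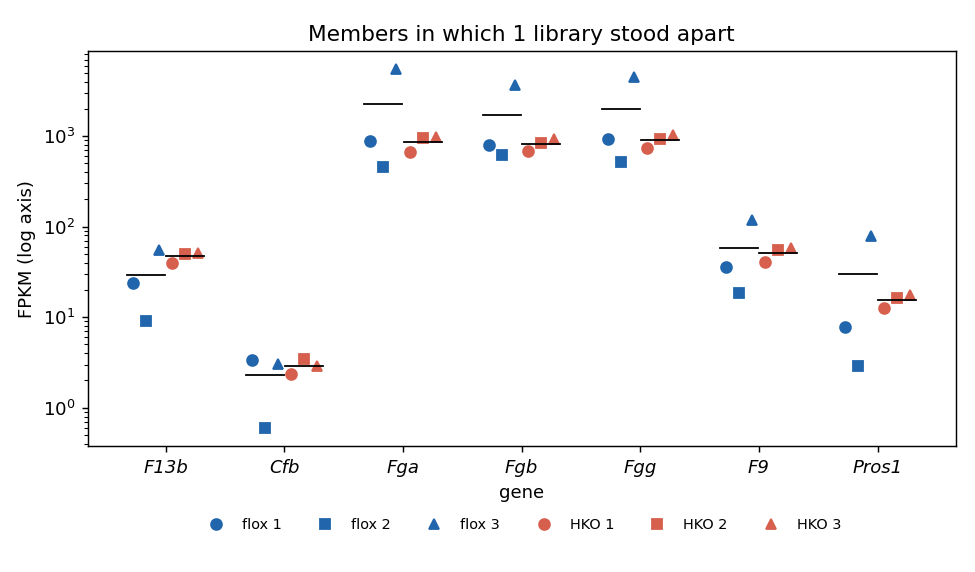
FPKM (log axis) of the 7 genes in which 1 library stood apart, with 1 point per library, flox in blue and HKO in red, a marker shape for each replicate number, and black bars at the group means. Flox 3 lies above all other libraries in Fga, Fgb, Fgg, F9 and Pros1, and flox 2 lies at the bottom in all 7 genes.

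The other clotting factors showed small differences. F2, which encodes prothrombin, was nearly constant in flox at 347, 358 and 359.96 FPKM and was at 261, 295 and 326 FPKM in HKO libraries. All HKO values were below all flox values, with a log2 fold change of -0.28 (SE 0.20, limma, adjusted p = 0.423) that turned to 0.02 under total read scaling and 0.27 under quantile normalization. F7, which encodes the protease that pairs with tissue factor, was at 46.4, 58.5 and 38.3 FPKM in flox and at 29.7, 32.1 and 39.9 FPKM in HKO libraries. Only flox 3 and HKO 3 overlapped, and the log2 fold change was -0.48 (SE 0.24, limma, adjusted p = 0.293). F10, which encodes factor X and lies 1.50 kb from F7, was at 155, 205 and 119 FPKM in flox and at 122, 119 and 148 FPKM in HKO libraries, with overlapping groups.

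Anticoagulants and fibrinolytic proteins showed no common direction. Proc encodes protein C, which inactivates factors V and VIII, and was at 296, 486 and 216 FPKM in flox 1, 2 and 3 and at 168, 198 and 211 FPKM in HKO 1, 2 and 3. The groups did not overlap, but flox 3 and HKO 3 were close (log2 fold change -0.71, SE 0.33, limma, adjusted p = 0.264). Plg, which encodes plasminogen, was at 402, 352 and 847 FPKM in flox and at 309, 377 and 448 FPKM in HKO libraries. Its high flox 3 value carried the log2 fold change of -0.40 (SE 0.38), which was -0.01 without that library. Serpind1, which encodes heparin cofactor II, was the opposite case, with 216, 196 and 89.8 FPKM in flox libraries, against 173, 196 and 259.7 FPKM in HKO libraries. Flox 3 was the lowest there, and the log2 fold change of 0.40 became 0.01 without it. Serpinc1, which encodes antithrombin and shares 34.4% of its exon bases with Zbtb37 on the other strand, so that its counts are uncertain, was at 167 to 216 FPKM in flox libraries, against 171 to 219.6 FPKM in HKO libraries. Serpinf2, which encodes the plasmin inhibitor alpha-2-antiplasmin, was at 281 to 337 FPKM in flox libraries, against 238 to 293 FPKM in HKO libraries.

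Leaving out flox 3 changed the calls. Without it limma called 40.4% of all genes at an adjusted p below 0.05, 19.4% lower and 21% higher in the libraries labelled HKO. Of the members 10 passed (25.6%), 7 lower and 3 higher, which is below the share of all genes. C2, Serping1, F12, Proc, Kng1, C4b and C3 were the 7 lower ones, with log2 fold changes from -1.10 (C2) to -0.57 (C4b). F13b at 1.63 (SE 0.39), Pros1 at 1.57 (SE 0.39) and F5 at 0.95 (SE 0.26) were the 3 higher ones. Their adjusted p-values lay between 0.0154 and 0.0432 in this fit, and over all alternatives each of the 10 ranged from at most 0.0341 to at least 0.619.

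The remaining flox libraries, flox 1 and 2, were those whose values fell with gene length. With each library's length trend removed as well, 33.4% of all genes and 8 members passed. C2, C4b, C3, Serping1, F13b and Pros1 were among the calls of both fits. Serpinc1 (lower, log2 fold change -0.63, adjusted p = 0.0455, limma) and F9 (higher, 1.16, adjusted p = 0.0437, limma) passed in the corrected fit but not in the fit before it, with ranges over all alternatives of 0.0455 to 0.993 and 0.0437 to 0.955. In the fit before it Serpinc1 was at -0.16 (adjusted p = 0.502, limma) and F9 at 0.95 (adjusted p = 0.0585, limma). Over 6 libraries Serpinc1 was at -0.05, so its lower value rests mostly on the length correction. F12, Proc, Kng1 and F5 kept their direction but no longer passed, with log2 fold changes of -0.60, -0.60, -0.59 and 0.55 in the corrected fit (limma, adjusted p = 0.0606, 0.0741, 0.0501 and 0.0806). In these fits 2 flox libraries stand for the genotype, and genotype cannot be told apart from what else those 2 libraries share.

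**Figure D4:**
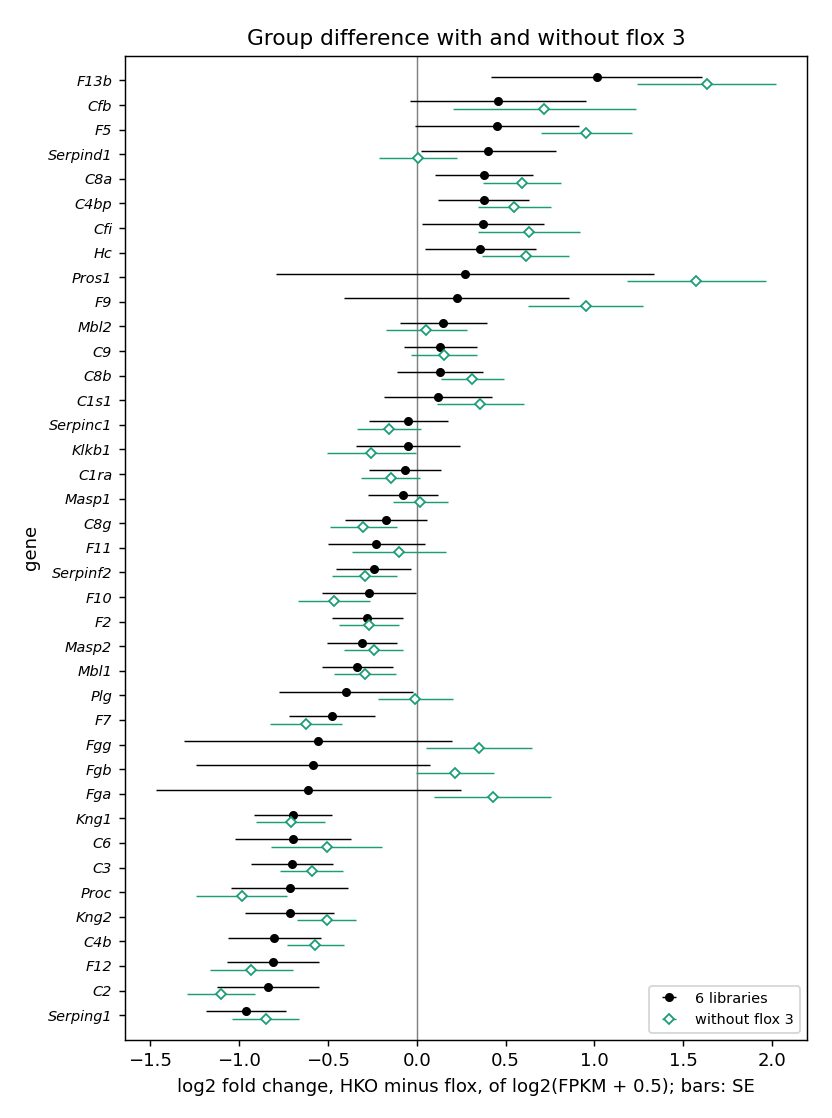
Log2 fold change of each gene (HKO minus flox, log2(FPKM + 0.5) scale) with its SE, over 6 libraries (filled points) and without flox 3 (open diamonds), ordered by the value over 6 libraries. Error bars are shorter without flox 3 in every gene but Cfb, and Fga, Fgb and Fgg move from negative to positive values, while Serping1, C2, C3 and C4b stay negative.

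Among the other complement genes, several with low values in the libraries labelled HKO are known as products of macrophages and other leukocytes. Of 33 listed genes 29 were tested, and 0 passed, with 11 lower and 1 higher at an unadjusted p below 0.05 (limma). Over all genes 10.8% were lower and 10.1% higher at that p. The 11 lower ones also held C4a, the near copy of C4b, and Cpn1, with log2 fold changes of -1.18 and -0.73. The 1 higher gene was Colec10, with a log2 fold change of 1.09. C1qb, a chain of C1q, which macrophages produce and which binds the C1r and C1s proteases, was at 321, 599.8 and 197 FPKM in flox 1, 2 and 3 and at 151, 101 and 125 FPKM in HKO 1, 2 and 3 (log2 fold change -1.44, SE 0.42, adjusted p = 0.184). C1qa and the properdin gene Cfp, which encodes a stabilizer of the alternative pathway convertase, had the same order of libraries, with log2 fold changes of -1.20 and -1.41. Summed levels of 8 Kupffer cell and macrophage markers were 439.9 to 681 FPKM in flox libraries, against 215 to 361 FPKM in HKO libraries. Of the 8, 4 were lower (Cd68, Marco, Csf1r and Cd5l) and 0 higher at an unadjusted p below 0.05 (limma). The markers did not share a direction: Adgre1, Timd4 and Cd163 had positive log2 fold changes of 0.06, 0.10 and 0.76, and Clec4f one of -0.71. Cd5l and Clec4f were the most abundant of the 8. The part of these marker differences in the values above, or in those of the 39 genes, was not tested. Itgb2 and C5ar1, a leukocyte integrin chain and the C5a receptor, had log2 fold changes of -1.32 and -1.05, and Clu, a fluid-phase inhibitor of the terminal complex, had one of -1.03. Neutrophil markers summed to 23.0 to 48.7 FPKM in flox libraries, against 2.74 to 4.73 FPKM in HKO libraries, with Ly6g listed at 0 in all 6 and Mpo and Elane at most at 0.246 FPKM.

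Of 31 other coagulation genes 28 were tested and 0 passed, with 4 lower and 2 higher at an unadjusted p below 0.05 (limma). The shares over all genes were 10.8% lower and 10.1% higher, and these counts are near them. Hrg encodes histidine-rich glycoprotein, a plasma protein of the kininogen family made in liver, and was at 278, 317 and 441 FPKM in flox and at 137, 188 and 169 FPKM in HKO libraries. Its groups did not overlap (log2 fold change -1.05, SE 0.26, adjusted p = 0.162, limma). Hpn, a hepatocyte surface protease that can activate factor VII, had a log2 fold change of -0.86. The receptor genes Plaur and Procr were at 3.47 to 5.22 and 1.74 to 2.23 FPKM in flox and at 0.684 to 1.41 and 0.429 to 0.856 FPKM in HKO libraries. Lman1, the cargo receptor that carries factors V and VIII out of the endoplasmic reticulum, was at 16.1 to 23.5 FPKM in flox libraries, against 29.9 to 34.0 FPKM in HKO libraries (log2 fold change 0.62), and F8, which encodes factor VIII, had a log2 fold change of 0.69.

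All 17 listed regulators of these genes were tested and 0 passed, with 3 lower and 4 higher at an unadjusted p below 0.05 (limma). At that p 10.8% of all genes were lower and 10.1% higher. Cebpb encodes a C/EBP factor of the acute-phase response and was at 82.4, 111 and 173 FPKM in flox 1, 2 and 3 and at 40.8, 53.8 and 47.8 FPKM in HKO 1, 2 and 3. The groups did not overlap and flox 3 was the highest (log2 fold change -1.30, SE 0.31, adjusted p = 0.160, limma). Cebpd was at 8.40, 12.3 and 20.2 FPKM in flox libraries, against 5.73 to 8.67 FPKM in HKO libraries. Il6ra, which encodes the interleukin 6 receptor, stood apart in flox 3, at 18.6 FPKM against 1.19 to 8.85 FPKM in the other libraries. It also stood apart as the lowest in flox 2, at 1.19 FPKM. Stat3 was at 23.5 FPKM in flox 3 against 8.45 to 14.7 FPKM in the other libraries. Socs3 was at 5.66, 4.49 and 6.68 FPKM in flox 1, 2 and 3, against 2.61 to 4.59 FPKM in HKO libraries. Its log2 fold change was -0.64, and flox 3 was its highest library by a small margin only. Groups overlapped in Cebpd, Il6ra, Stat3 and Socs3. Hnf4a, which encodes the nuclear receptor HNF4 alpha, was also highest in flox 3, at 153 FPKM against 88.1 to 125 FPKM in the other libraries, and Cebpa was lowest there, at 81.6 FPKM against 96.6 to 136 FPKM. Both overlapped between groups, with log2 fold changes of -0.09 and -0.10. Nr5a2, a nuclear receptor of liver, was at 5.46 to 6.56 FPKM in flox libraries, against 11.1 to 12.3 FPKM in HKO libraries (log2 fold change 0.90, SE 0.19, adjusted p = 0.157, limma). Il6st, which encodes the signalling subunit of the interleukin 6 receptor, was not highest in flox 3. It was at 10.8, 7.86 and 13.9 FPKM in flox 1, 2 and 3, against 15.6 to 19.6 FPKM in HKO libraries (log2 fold change 0.71). Onecut1 and Prox1 had log2 fold changes of 0.89 and 1.41.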

How the data were processed

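Liver RNA from 6 mice was sequenced. Groups were taken from the genotype labels. TopHat2, HTSeq 0.6.1 and the build GRCm38.p6 are listed in the submitters' processing notes. Whether reads were counted by strand is not given in the sources used here. The labels name no litter, batch or date, and p-values set the group difference against the spread between these libraries within groups. The authors deposited FPKM values, 1 table per group, per the file headers. Multiplied by gene length they gave whole reads for 100% of values in each library (tolerance 0.01 of a read), from which depth was taken, and library sizes inside the FPKM equalled median-of-ratios size factors over all 6 libraries.

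Values were tested as log2(FPKM + 0.5) where a gene averaged 0.5 FPKM or more, with limma 3.58.1 in R 4.3.3 (group as the only term, variances moderated along their trend with the mean, two-sided, Benjamini-Hochberg over 13787 genes, threshold 0.05). Such fold changes understate changes of low genes. Values for members are given for the 12 with the smallest p and those with 1 library apart, and ranges or values for the rest. For other genes, the 6 per list with the smallest p and a mean of at least 1 FPKM were named. C1qa and C1qb fall under that rule. C4a, Cpn1, Colec10, Il6ra, Stat3, Socs3, Hnf4a and Cebpa were chosen after their values were seen. The members and lists were chosen with earlier results of these data known. Exon overlap and shared words of 50 bases come from GENCODE M21. The code was tested on simulated reads that had the same spread in every library, unlike these data, so the test checks the code only. Alternatives were pseudocounts of 0.1 and 1, no filter or one at 2 FPKM, 3 scalings, no variance trend, voom on recovered reads, a replicate block, removal of each library's length trend (lowess, span 0.3), and leaving out libraries. Leaving out flox 3 with the length trend removed, and the block with the length trend removed, were added after seeing the data. Identity between member proteins was not analysed here, and some genes and a promoter motif are not reported here. Figures were drawn with matplotlib 3.10.9.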

Additional observations from a re-analysis of the deposited data

How the results depend on the processing

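Named members and Elavl1 kept their direction and side of the threshold in 346 refits of a single gene, passed in 16 and reversed in 18. Counts of genes past the threshold (2) and of members past it (0), at an unadjusted p below 0.05 (7), without overlap (12) and with 1 library apart (7) became 0 to 5575, 0 to 10, 1 to 16, 12 to 22 and 3 to 10 when each library was left out in turn. With flox 3 left out and the length trend removed they were 4598, 8, 16, 22 and 4. Past the threshold were 40.4% of all genes without flox 3, and 33.4% with the length trend removed too. Groups with fewer libraries also fail to overlap more readily. Shares of all genes for the other counts are not given here, so these member counts are no result about the members. Without flox 2 and HKO 3 together, genes past the threshold numbered 0 and members at an unadjusted p below 0.05 numbered 3. Total read scaling left 3 such members. Replicate numbers share no stated animal, batch or day, and deviations of same-numbered libraries correlated at -0.042, -0.090 and 0.070. With the replicate number as a block there were 1 gene and 4 such members, and with the length trend removed 1 gene. The median over members (-0.23) was -0.28 to -0.10 with a library left out, 0.063 under total read scaling, -0.090 under upper quartile scaling, 0.27 under quantile normalization and 0.097 without flox 3 and the length trend. For complement (-0.07) these scalings gave 0.23, 0.075 and 0.36, and removing the length trend, with or without the replicate block, gave 0.092, or 0.097 without flox 3. For coagulation (-0.27) total read scaling gave 0.026, quantile normalization 0.15, leaving out flox 2 and HKO 3 -0.47, and leaving out flox 3 and the length trend 0.081. Mbl1 turned to 0.13 (quantile) and 0.097 (without flox 3 and the length trend). Fga, Fgb and Fgg turned to 0.081, 0.12 and 0.11 (quantile), 0.43, 0.22 and 0.35 (without flox 3), and 0.57, 0.20 and 0.66 (with the length trend removed too). Cfb turned to -0.12 without flox 2, F9 to -0.37 and Pros1 to -0.70, and to -0.13, -0.47 and -0.80 without HKO 3 as well. Pros1 was -0.058 without flox 1. With 1 library left out in turn, log2 fold changes ran from -0.12 to 0.78 for Cfb, -1.36 to 0.43 for Fga, -1.07 to 0.22 for Fgb, -1.21 to 0.35 for Fgg, -0.37 to 0.95 for F9 and -0.70 to 1.57 for Pros1. The cause was not tested. Depth was lowest for Cfb, at 27 reads in flox 2.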

Other observations

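Crp and Hp, acute-phase genes outside complement and coagulation, were chosen after their values were seen. Crp, which encodes C-reactive protein, was at 33.3, 14.9 and 126 FPKM in flox 1, 2 and 3 and at 29.7, 38.1 and 34.3 FPKM in HKO 1, 2 and 3, with the same order of flox libraries as the fibrinogen chains. Hp, which encodes haptoglobin, was at 5866, 8379 and 7247 FPKM in flox libraries, against 2632, 3417 and 3107 FPKM in HKO libraries, without overlap.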
